A study of Homo sapiens with 16 samples.

Results

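PML, SP100, SP110, DAXX, IFI16, IFI35 and NMI were followed across all libraries of the series, as a group of nuclear-body and interferon-inducible genes chosen by name. These are 7 of the 20802 gene targets in the files, each measured by 1 target, and all 7 passed the filter on low counts. RNA was counted in 16 libraries of HEK293, a cell line from human embryonic kidney grown in Free-style medium, and the series asks what the geometry of paired Janus kinases on interferon receptors does to gene expression. Its 8 groups of 2 libraries came from cells with wild-type receptors and cells with receptors labelled optimized, here called wild-type cells and optimized cells. Each genotype was left untreated or received 100 nM of a ligand: the type I interferon omega (IFNw), the type III interferon IFNL3, or H11, which is labelled as a high-affinity form of IFNL3. The protocols give an exposure of 15 min while each library carries a time of 24 hr, and no source used here says how the 2 relate. Nor does any say how the receptors were changed or whether a line is 1 clone.

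PML bodies are protein assemblies of the nucleus built on the PML scaffold, which is modified by SUMO, and SP100 and DAXX are among their resident proteins. They repress incoming viral genomes and store chromatin regulators, and interferons are known to raise PML and SP100 as well as the SP100 relative SP110. IFI16 is a DNA sensor of the PYHIN family that acts in the nucleus and the cytoplasm. NMI and IFI35 are related interferon-inducible proteins that bind each other.

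Interferon raises genes through DNA elements near their start sites, so the promoter windows of RefSeq (GRCh38.p14, 250 bases before a start site and 50 from it) were searched for 2 short motifs. 5 of the 7 genes matched, with 8 windows; PML and DAXX were not matched. The motifs were the core of the interferon-stimulated response element, GAAANNGAAA, and the core of the gamma-activated site, TTCNNNGAA, each on both strands; the latter also reads as itself on the other strand. A response element core is in 3.57% of all 35116 windows and a gamma-activated site core in 7.66%. The 3 windows below are shown because they hold a match, from 250 bases before the start site to the first 30 bases from it, 5′ to 3′ on the gene's strand, with the matches in capitals. The NMI window is chr2:151289639-151289918 on the minus strand. The IFI35 window is chr17:43006534-43006813 on the plus strand. The SP110 window, 1 of its 2, is chr2:230219955-230220234 on the minus strand.
NMI: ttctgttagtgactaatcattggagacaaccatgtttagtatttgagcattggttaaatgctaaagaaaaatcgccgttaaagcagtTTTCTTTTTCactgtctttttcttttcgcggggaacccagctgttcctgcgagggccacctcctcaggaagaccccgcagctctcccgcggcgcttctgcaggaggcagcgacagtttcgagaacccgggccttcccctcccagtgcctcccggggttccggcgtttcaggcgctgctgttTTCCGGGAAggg
IFI35: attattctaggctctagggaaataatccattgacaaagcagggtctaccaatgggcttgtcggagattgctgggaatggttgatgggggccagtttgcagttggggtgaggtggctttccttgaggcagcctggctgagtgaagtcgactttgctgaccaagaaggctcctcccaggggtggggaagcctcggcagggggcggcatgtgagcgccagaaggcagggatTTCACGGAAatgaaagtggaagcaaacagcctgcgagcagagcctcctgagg
SP110: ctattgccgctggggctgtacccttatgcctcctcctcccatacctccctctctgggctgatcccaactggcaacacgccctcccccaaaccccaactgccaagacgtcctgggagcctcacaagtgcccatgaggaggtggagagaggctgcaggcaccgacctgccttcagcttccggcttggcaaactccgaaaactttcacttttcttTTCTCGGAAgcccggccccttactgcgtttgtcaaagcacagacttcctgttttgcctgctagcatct
NMI held a response element core on the opposite strand, whose leftmost printed base lay 163 bases before the start site, and a gamma-activated site core beginning 18 bases after it. The gamma-activated site core began 22 bases before the start site of IFI35 and 38 bases before that of SP110. The windows of SP100 and IFI16 held neither of these letter patterns. A match is a description of the sequence, and its use in these cells was not measured.

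Totals were 5331203 to 9822088 reads a library, and levels are given as CPM, read counts scaled to a common library size with TMM factors. Of the 6 markers listed for HEK293 cells, 5 reached 10 reads in a library, while 0 of 7 leukocyte markers and 0 of 4 hepatocyte markers did; of 5 fibroblast markers 2 did, summing to 15.3 to 29.1 CPM. The least alike replicates were the untreated optimized libraries (Pearson's r 0.965 over genes, against 0.983 to 0.986 in the other groups), of which replicate 2 was the shallowest library. Libraries also differed in composition: the top 50 genes held 17.7 to 18.5% of all reads in wild-type cells with H11 or IFNL3, and 23.7 to 28.7% in the others. Each gene's log2 level, taken relative to its own mean over all libraries, was rank-correlated with transcript length. The correlation was 0.28 to 0.29 in the 4 wild-type libraries with H11 or IFNL3. It was -0.31 to -0.30 in the 6 libraries with IFNw or, in optimized cells, H11. Under scaling by library totals alone the median log2 change over all genes lay between -0.69 and 0.66 over the 19 comparisons, against -0.06 to 0.05 with TMM, so the changes below are relative to most genes. The labels call the replicates biological without naming separate cultures, so p-values measure the spread between these libraries, and no mock-treated group is used here. No source used here gives the position of a target in its transcript, so isoforms were not told apart and levels are not compared between genes. In bulk RNA, fewer responding cells and less RNA per cell cannot be told apart.

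PML, the scaffold of the bodies, rose with every ligand in both genotypes, and was highest where wild-type cells met H11 or IFNL3. The 2 libraries of wild-type cells gave 20.8 and 18.8 CPM untreated, 70.2 and 64.6 CPM with IFNw, 141 and 163 CPM with H11, and 146 and 150.4 CPM with IFNL3. In optimized cells they gave 27.1 and 17.5 CPM untreated, 70.3 and 68.3 CPM with IFNw, 60.9 and 70.4 CPM with H11, and 79.3 and 85.2 CPM with IFNL3. The 4 wild-type libraries with H11 or IFNL3 were thus all above the other 12, and every treated library was above every untreated one. Against untreated cells PML was 3.40-fold higher with IFNw, 7.66-fold with H11 and 7.47-fold with IFNL3 in wild-type cells (log2 1.76 ± 0.169 SE, 2.94 ± 0.17 and 2.90 ± 0.17). In optimized cells it was 3.06-fold, 2.89-fold and 3.63-fold higher (log2 1.61, 1.53 and 1.86). The largest of the 6 adjusted p-values was 3.09e-06 (edgeR quasi-likelihood test, Benjamini-Hochberg over 12704 genes), and all 6 rises were called in each alternative fit run.

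SP100, a resident of the bodies that binds heterochromatin protein 1, was close to undetected before treatment. Untreated wild-type libraries held 0 and 1 read and untreated optimized libraries 0 and 0, where a floor of 3 reads allows up to 0.193 CPM over that group. With ligand, wild-type libraries reached 1.67 and 1.45 CPM with IFNw, 0.435 and 0.827 CPM with H11, and 0.447 and 0.449 CPM with IFNL3. Optimized libraries reached 1.74 and 2.12 CPM with IFNw, 2.05 and 1.28 CPM with H11, and 2.14 and 1.45 CPM with IFNL3. The optimized libraries with H11 or IFNL3 did not overlap the wild-type ones with the same ligand. Against the single untreated read, the ratio in wild-type cells was 29.9 with IFNw (exact 95% interval 4.86 to 1232), 12.2 with H11 (1.88 to 515) and 8.62 with IFNL3 (1.23 to 374), intervals that cover counting error only. In optimized cells SP100 was at least 10.03-fold higher with IFNw, at least 8.73-fold with H11 and at least 9.37-fold with IFNL3, with the floor of 3 reads set over the untreated group. All 6 rises were called, but the wild-type calls with H11 and IFNL3 rested on 15 and 10 reads. Its untreated libraries lay below the minimum count of 10, so SP100 passed the low-count filter through treated libraries alone. Its rise thus helped to select it for testing. The call with H11 was lost without untreated replicate 1 (log2 change 2.51) or H11 replicate 2 (2.77), and by DESeq2 (adjusted p 0.0628). That with IFNL3 was lost without any 1 of its 4 libraries (2.02 to 5.05) and by DESeq2 (adjusted p 0.122). In edgeR it was also lost without the low-count filter (adjusted p 0.0917) and with replicate number as a block (0.0541).

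SP110, an SP100 relative of the speckled protein family, rose with every ligand in both genotypes from few untreated reads. Its wild-type libraries held 0 and 0.499 CPM untreated, 3.90 and 5.39 CPM with IFNw, 7.57 and 6.37 CPM with H11, and 5.19 and 5.65 CPM with IFNL3. Its optimized libraries held 0.204 and 0 CPM untreated, 6.43 and 5.48 CPM with IFNw, 5.52 and 3.98 CPM with H11, and 5.60 and 5.36 CPM with IFNL3. Every treated library was above every untreated one, while treated groups lay close together. Like SP100, SP110 passed the low-count filter through treated libraries alone, so its rise helped to select it for testing. In wild-type cells, from 5 untreated reads, the log2 rise was 4.10 ± 0.582 with IFNw, 4.68 ± 0.541 with H11 and 4.32 ± 0.556 with IFNL3. In optimized cells, from 2 untreated reads, the ratio was 46.1 with IFNw (exact 95% interval 12.4 to 387), 37.2 with H11 (9.92 to 313) and 42.6 with IFNL3 (11.5 to 356). All 6 rises were called in each fit run (edgeR, largest adjusted p 4.31e-05), but their size moved with the untreated library that had no read. With IFNw, H11 and IFNL3 it was 8.39, 8.97 and 8.61 in wild-type cells without untreated replicate 2, and 3.19, 3.77 and 3.41 without replicate 1. In optimized cells it was 8.74, 8.42 and 8.63 without untreated replicate 1, and 4.78, 4.46 and 4.66 without replicate 2.

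DAXX, a chaperone of histone H3.3 that is held in the bodies by PML, changed least. Wild-type libraries gave 37.1 and 36.0 CPM untreated, 45.4 and 41.5 CPM with IFNw, 45.4 and 39.5 CPM with H11, and 41.5 and 38.1 CPM with IFNL3. Optimized libraries gave 34.8 and 24.7 CPM untreated, 43.5 and 43.5 CPM with IFNw, 45.1 and 38.1 CPM with H11, and 52.6 and 47.4 CPM with IFNL3. Treated and untreated libraries did not overlap within a genotype, although the gap was small. In wild-type cells the log2 changes of 0.25, 0.21 and 0.12 with IFNw, H11 and IFNL3 (SE 0.158 to 0.16) did not pass the test. In optimized cells DAXX rose by 0.53 ± 0.163 with IFNw, 0.47 ± 0.164 with H11 and 0.73 ± 0.162 with IFNL3 on the log2 scale (edgeR adjusted p 0.0181, 0.0359 and 0.00646). All 3 calls were lost without untreated replicate 2, the shallowest library, where the changes were 0.32, 0.26 and 0.52, and in a fit of the compared groups alone (adjusted p over the alternatives up to 0.504, 0.661 and 0.166). The call with IFNw was also lost without either IFNw library, that with H11 without H11 replicate 1, and that with IFNL3 without IFNL3 replicate 1. Scaled by library totals alone, the optimized changes with IFNw and H11 were 0.14 and 0.09, where the median of all genes was -0.43 and -0.40. On that scaling the wild-type changes with H11 and IFNL3 were called, at 0.48 and 0.40, where the median was 0.25 and 0.27.

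IFI16, the PYHIN sensor, rose most with IFNw in wild-type cells and with IFNw and H11 in optimized cells. Wild-type libraries gave 1.95 and 1.10 CPM untreated, 34.7 and 31.9 CPM with IFNw, 8.17 and 9.10 CPM with H11, and 8.32 and 8.70 CPM with IFNL3. Optimized libraries gave 1.32 and 0.876 CPM untreated, 36.2 and 29.8 CPM with IFNw, 26.7 and 41.9 CPM with H11, and 19.1 and 19.1 CPM with IFNL3. The libraries thus fell into 4 separate ranges: untreated cells, wild-type cells with a type III ligand, optimized cells with IFNL3, and the remaining 6. The rise was 21.8-fold with IFNw, 5.68-fold with H11 and 5.59-fold with IFNL3 in wild-type cells (log2 4.45 ± 0.284, 2.51 ± 0.303 and 2.48 ± 0.305). In optimized cells it was 28.3-fold, 29.4-fold and 16.4-fold (log2 4.82 ± 0.31, 4.88 ± 0.31 and 4.04 ± 0.318). The largest adjusted p was 8.48e-06 (edgeR), and all 6 calls stood in each fit run.

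IFI35, which forms a complex with NMI, had the largest rises of the genes other than SP100 and SP110, whose baselines were near 0 reads. Its wild-type libraries gave 2.17 and 1.89 CPM untreated, 167 and 194 CPM with IFNw, 21.7 and 17.9 CPM with H11, and 20.5 and 20.8 CPM with IFNL3. Its optimized libraries gave 1.93 and 0.700 CPM untreated, 192 and 195 CPM with IFNw, 192 and 184 CPM with H11, and 118 and 106 CPM with IFNL3. IFNw and, in optimized cells, H11 thus gave overlapping levels, and wild-type cells with H11 or IFNL3 lay below them with no overlap. In wild-type cells the rise was 88.4-fold with IFNw, 9.70-fold with H11 and 10.1-fold with IFNL3 (log2 6.47 ± 0.218, 3.28 ± 0.225 and 3.34 ± 0.225). In optimized cells it was 131-fold, 128-fold and 76.1-fold (log2 7.04 ± 0.235, 6.997 ± 0.235 and 6.25 ± 0.235). The largest adjusted p was 1.02e-08 (edgeR), and no alternative fit lost a call, though without untreated replicate 1 the optimized rises were 8.08, 8.04 and 7.30 on the log2 scale.

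NMI, the binding partner of IFI35, rose less, with a similar order of groups. Its wild-type libraries gave 1.95 and 2.39 CPM untreated, 28.95 and 18.3 CPM with IFNw, 10.0002 and 10.01 CPM with H11, and 7.87 and 7.63 CPM with IFNL3. Its optimized libraries gave 2.44 and 0.350 CPM untreated, 23.2 and 24.1 CPM with IFNw, 19.5 and 23.3 CPM with H11, and 12.8 and 13.2 CPM with IFNL3. Optimized cells with IFNL3 again lay between the 2 sets and overlapped neither. The log2 rise was 3.43 ± 0.34, 2.19 ± 0.348 and 1.82 ± 0.357 with IFNw, H11 and IFNL3 in wild-type cells and 3.86 ± 0.368, 3.71 ± 0.371 and 2.99 ± 0.379 in optimized cells (edgeR, largest adjusted p 0.000691). All 6 were called in each fit run, but the untreated optimized replicates held 24 and 2 reads, and the optimized rises were 6.02, 5.88 and 5.16 without replicate 1 and 3.26, 3.12 and 2.40 without replicate 2.

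**Figure D1:**
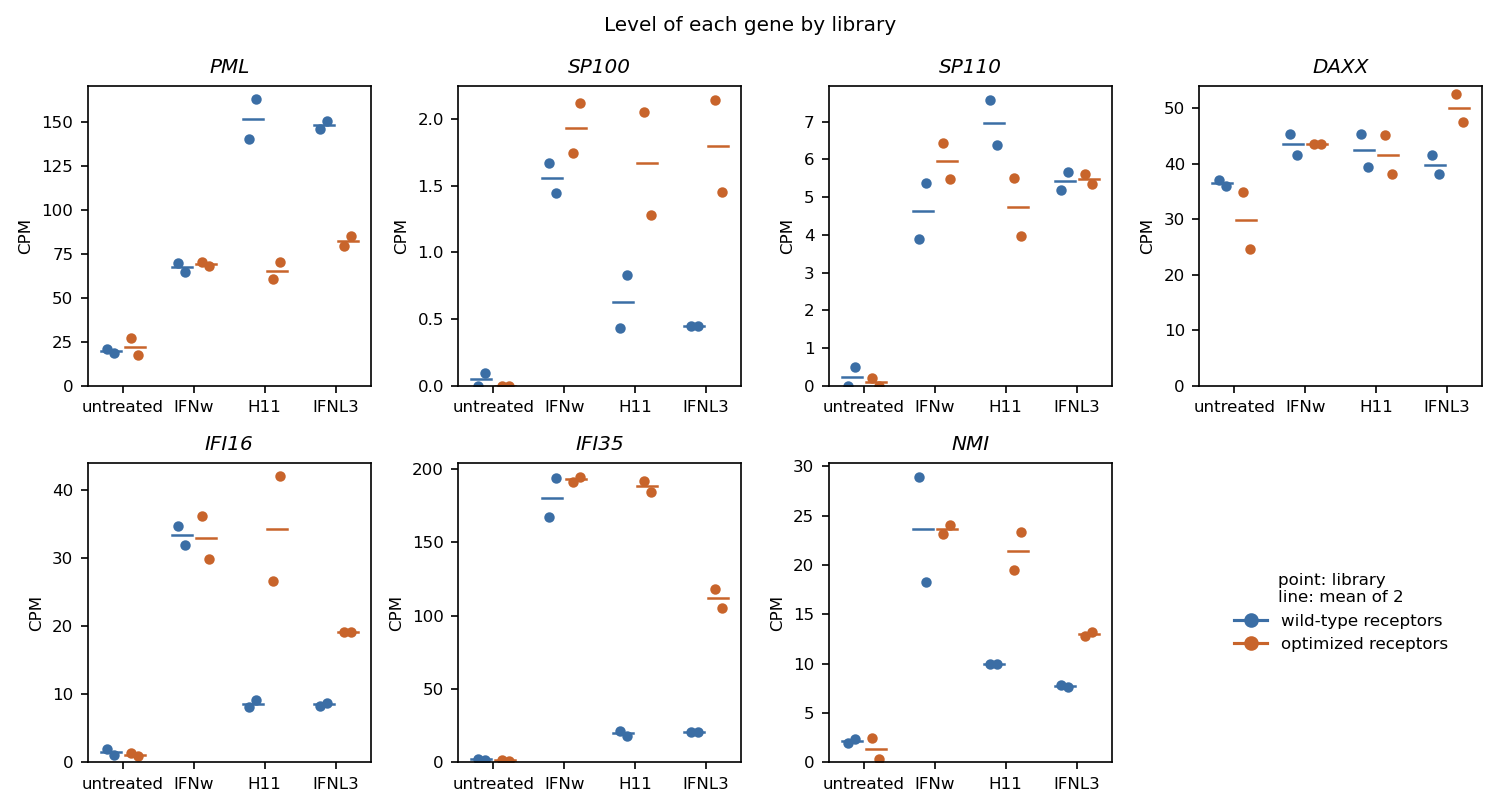
Level of each gene in the 16 libraries in CPM (linear axes from 0) by treatment, with wild-type cells in blue and optimized cells in orange; points are libraries and lines are means of 2. PML was highest in wild-type cells with H11 or IFNL3 (141 to 163 CPM), where IFI35 was at 17.9 to 21.7 CPM against 167 to 195 CPM with IFNw.

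Counted over the 7 genes, 6 rose and none fell with each ligand in wild-type cells, DAXX being the exception, and all 7 rose with each ligand in optimized cells. SP100 and SP110 are among these risers, and both passed the low-count filter through treated libraries alone. Their rises thus helped to select them, and they should be left aside when the counts are set against all genes. The optimized calls of DAXX were lost in a fit of the compared groups alone. Of all genes tested, 16.6% rose and 14.8% fell with IFNw, 18.2% and 20.6% with H11, and 18.7% and 21.1% with IFNL3 in wild-type cells. In optimized cells 17.5% rose and 15.9% fell with IFNw, 17.2% and 15.2% with H11, and 7.26% and 6.05% with IFNL3. The median log2 change over the 7 genes was 4.10 with IFNw and 2.94 with H11 in wild-type cells, against -0.05 and -0.02 over all genes. The first of these medians is the value of SP110 and the second that of PML. With library totals alone, the percentage of calls that were higher moved from 52.9 to 20.1 with IFNw, 47.0 to 71.8 with H11 and 47.0 to 72.4 with IFNL3 in wild-type cells, and from 52.4 to 18.7, 53.1 to 19.6 and 54.6 to 42.0 in optimized cells. In optimized cells with IFNw it was 63.3 in the fit of those groups alone.

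**Figure D2:**
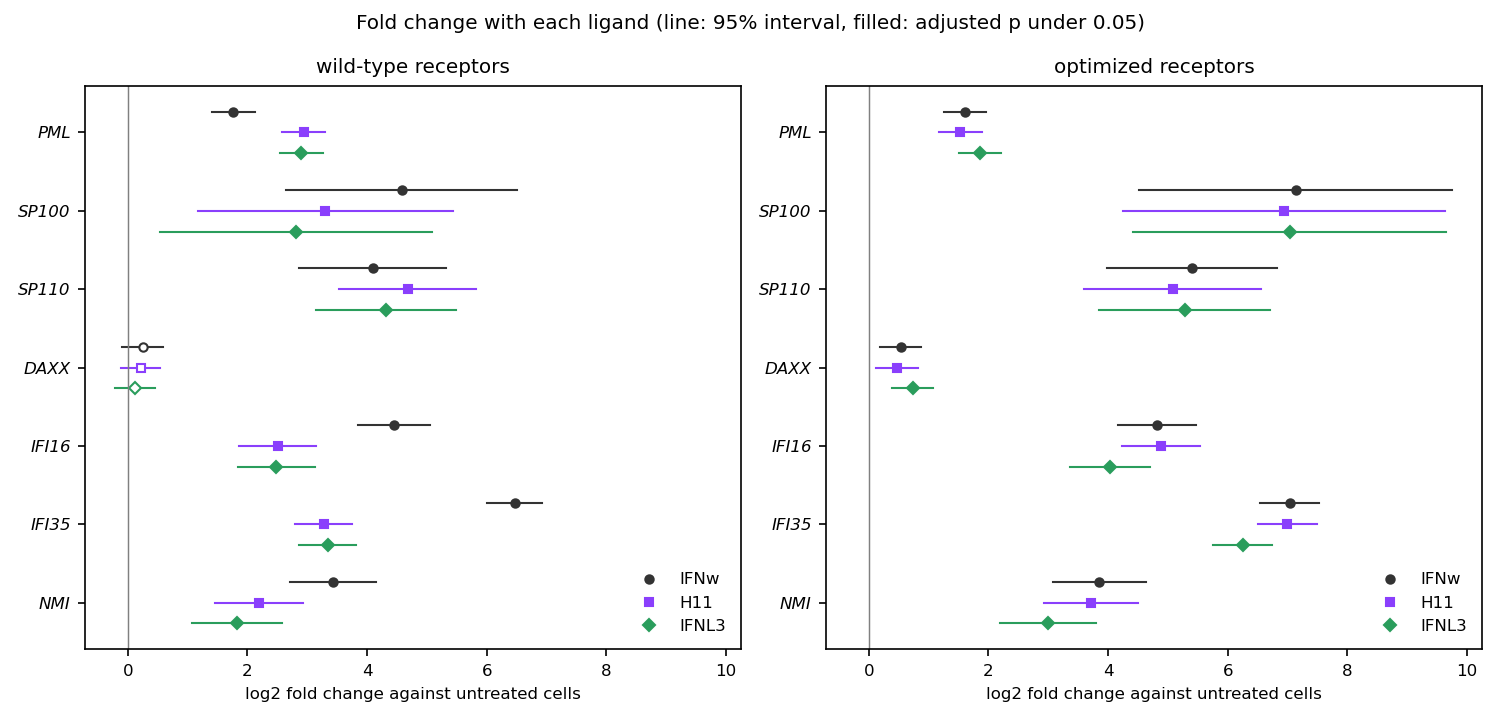
Log2 fold change of each gene with IFNw, H11 and IFNL3 against untreated cells, in wild-type cells (left) and optimized cells (right); lines are 95% intervals and filled symbols have an adjusted p under 0.05. In wild-type cells PML changed more with H11 (2.94) than with IFNw (1.76), and IFI35 less (3.28 against 6.47); the wide lines of SP100 reflect 0 or 1 untreated reads.

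In wild-type cells, H11 against IFNw set PML apart from the other genes that changed. PML was 2.26-fold higher with H11 (log2 1.17, 95% interval 0.84 to 1.504), while IFI35 was 9.11-fold lower (-3.19, -3.54 to -2.84), IFI16 3.85-fold lower (-1.94, -2.41 to -1.48) and NMI 2.35-fold lower (-1.24, -1.82 to -0.65). The adjusted p-values were 7.94e-06, 1.76e-10, 1.30e-06 and 0.00123 (edgeR), beside 26.6% of all genes higher and 25.7% lower. SP110 (0.58, -0.17 to 1.33), SP100 (-1.28, -2.50 to -0.06) and DAXX (-0.03, -0.37 to 0.30) did not pass the test. IFNw against IFNL3 gave the mirror image: PML was lower (-1.14 ± 0.157) and IFI35 (3.13 ± 0.166), IFI16 (1.97 ± 0.223), NMI (1.60 ± 0.285) and SP100 (1.76 ± 0.613) were higher, beside 25.9% of genes higher and 27.2% lower. The SP100 call was lost without any 1 of the 4 libraries compared, by DESeq2, with library totals alone and without the low-count filter (adjusted p over the alternatives up to 0.112). These 2 comparisons share the IFNw libraries. With library totals alone the percentage of calls that were higher moved from 50.9 to 81.0 for H11 against IFNw and from 48.8 to 19.0 for IFNw against IFNL3. On that scaling PML stood at 1.79 and IFI35 at -2.58 for H11 against IFNw, where the median of all genes was 0.66. NMI was at -0.62 and no longer called (adjusted p over the alternatives up to 0.0566), SP110 was called at 1.19, and DAXX moved from -0.03 to 0.58.

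The split also appeared in the yardstick genes of the interferon response. For H11 against IFNw in wild-type cells, the ubiquitin-like modifier ISG15 was at -3.73, IFI6 at -3.52 and the immunoproteasome subunit PSMB9 at -4.76, and the protease gene USP18 at -0.65, on the log2 scale. The transcription factor gene IRF9 (-0.09, adjusted p 0.549) did not pass the test, and STAT2, whose protein binds that of IRF9, was higher by 0.60 ± 0.126 (edgeR, adjusted p 0.000722). Transcript length moved with the same groups: IFI35 and NMI have median annotated lengths of 1236.5 and 1102 bases, and PML and IFI16 of 2215.5 and 2245. With a length term in the fit, H11 against IFNw in wild-type cells gave 1.09 for PML, -2.04 for IFI16, -2.93 for IFI35 and -0.95 for NMI, all still called, and the part of length in the remaining differences was not tested.

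H11 and IFNL3 themselves were not separated in wild-type cells. None of the 7 genes was called, none had an unadjusted p under 0.05, and edgeR and DESeq2 each called 0 of the 12704 genes (0% in either direction), with 158 at an unadjusted p under 0.05. The intervals of the difference bound it to between -0.28 and 0.36 for PML, -0.41 and 0.29 for IFI35, -0.47 and 0.51 for IFI16, and -0.24 and 0.98 for NMI, on the log2 scale. For SP110 and SP100 they were wider, -0.35 to 1.07 and -0.89 to 1.87. With 2 libraries a group, differences within these intervals remain compatible with the data, and the missing calls do not show that there is none.

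In optimized cells the ligands paired otherwise. H11 against IFNw gave no call among the 7 genes, with 0 of 12704 genes called by edgeR or DESeq2 (0% in either direction) and 279 at an unadjusted p under 0.05, none of them among the 7. The intervals were -0.41 to 0.26 for PML, -0.35 to 0.28 for IFI35, -0.38 to 0.49 for IFI16 and -0.71 to 0.43 for NMI. IFNL3, by contrast, left IFI35, IFI16 and NMI lower than IFNw did, by 0.79 ± 0.15, 0.79 ± 0.21 and 0.86 ± 0.275 in log2 (edgeR adjusted p 0.00173, 0.0144 and 0.0359), beside 11.5% of genes higher and 7.58% lower with IFNw. H11 exceeded IFNL3 for IFI35 (0.75 ± 0.15, adjusted p 0.00264) and IFI16 (0.84 ± 0.211, adjusted p 0.0104), beside 10.7% and 6.86%, and NMI missed the threshold (0.72, adjusted p 0.0858, and 0.0114 to 0.315 over the alternatives). PML was at -0.25 for IFNw and -0.33 for H11 against IFNL3, neither of them called. By library totals alone both were called (-0.58 and -0.64), as was DAXX (-0.53 and -0.57), where the median of all genes was -0.34 and -0.32. IFI35 kept both calls in each fit run. The calls of IFI16 and NMI against IFNw were lost without either IFNL3 library or without IFNw replicate 1, and with library totals alone (adjusted p over the alternatives up to 0.112 and 0.149). That of NMI was also lost without IFNw replicate 2, with the length term, and without the 4 wild-type libraries with H11 or IFNL3 (0.85). The call of IFI16 for H11 against IFNL3 was lost without either IFNL3 library or without H11 replicate 2, where the change was 0.51, and with library totals alone (up to 0.193). On library totals alone the percentage of calls that were higher moved from 60.2 to 13.2 for IFNw and from 60.9 to 13.4 for H11 against IFNL3.

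The genotypes were then compared within each treatment. Untreated cells and cells with IFNw gave no call among the 7 genes and 0 of 12704 over all genes by edgeR and by DESeq2 (0% in each direction), with 705 and 439 genes at an unadjusted p under 0.05, none of them among the 7. With IFNw the intervals were -0.29 to 0.37 for PML, -0.22 to 0.41 for IFI35, -0.45 to 0.42 for IFI16 and -0.56 to 0.57 for NMI. With H11, optimized cells had 9.50-fold more IFI35 (log2 3.25 ± 0.167), 3.96-fold more IFI16 (1.99 ± 0.221) and 2.14-fold more NMI (1.10 ± 0.278), and 2.32-fold less PML (-1.21 ± 0.157). The adjusted p-values were 1.45e-10, 1.10e-06, 0.00328 and 6.00e-06 (edgeR), beside 25.6% of genes higher and 26.1% lower. With IFNL3, IFI35 was 5.42-fold higher (2.44 ± 0.163), IFI16 2.24-fold higher (1.17 ± 0.224), SP100 3.93-fold higher (1.98 ± 0.585), and PML 1.80-fold lower (-0.85 ± 0.155), beside 18.1% of genes higher and 15.1% lower. SP100 held 5 reads in each wild-type library with IFNL3, below the minimum count of 10. It thus passed the low-count filter through groups where it is higher, which helped to select it for this test. The SP100 call rested on 34 against 10 reads and was lost without either wild-type library or optimized replicate 1 (adjusted p 0.0148 to 0.126). NMI with IFNL3 was at 0.75 (adjusted p 0.0567, and 0.0101 to 0.257 over the alternatives), SP100 with H11 at 1.38 (adjusted p 0.0519, and 0.0479 to 0.302), and SP110 was not called with either ligand (-0.55 and 0.02). By library totals alone NMI with H11 was not called (0.47, adjusted p over the alternatives up to 0.149), and SP110 (-1.18) and DAXX (-0.66) were, where the median of all genes was -0.68. On that scaling the percentage of calls that were higher moved from 49.5 to 18.1 with H11 and from 54.5 to 21.5 with IFNL3. For the untreated comparison, leaving out optimized replicate 1 gave calls for DAXX (-0.57) and NMI (-2.59).

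**Figure D3:**
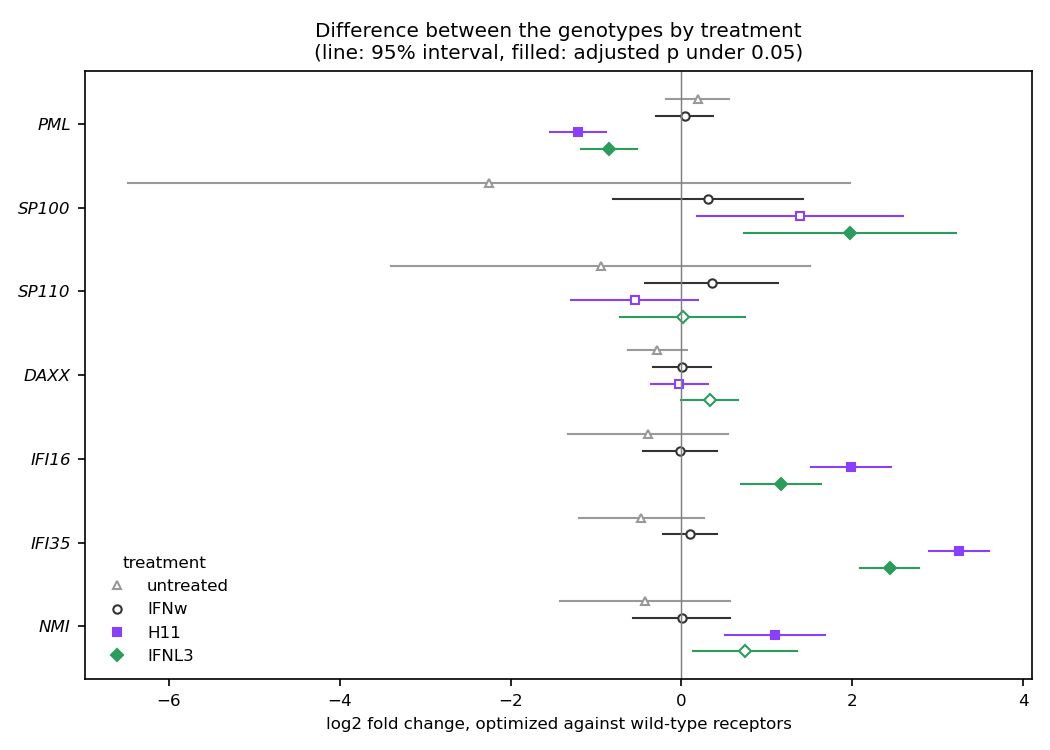
Log2 fold change of optimized against wild-type cells for each gene by treatment; lines are 95% intervals and filled symbols have an adjusted p under 0.05. With H11 and IFNL3, PML lay left of 0 (-1.21 and -0.85) and IFI35 (3.25 and 2.44) and IFI16 (1.99 and 1.17) right of it, and the intervals of untreated cells and of IFNw include 0 for all 7 genes.

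The difference between the genotypes' responses, each response taken against its own untreated cells, was tested directly. For IFNw no gene was called by edgeR or DESeq2 (0% in each direction), 633 of 12704 had an unadjusted p under 0.05, and none of these was among the 7. For H11 the response of optimized cells exceeded that of wild-type cells by 3.72 ± 0.382 for IFI35, 2.37 ± 0.494 for IFI16 and 1.52 ± 0.545 for NMI, and that of PML was smaller (-1.41 ± 0.235). The adjusted p-values were 1.24e-06, 0.00116, 0.0368 and 0.000177 (edgeR), beside 19.5% of genes with a higher and 17.4% with a lower difference. For IFNL3 the difference was 2.91 ± 0.38 for IFI35, 1.56 ± 0.496 for IFI16 and -1.04 ± 0.233 for PML (adjusted p 7.43e-05, 0.0369 and 0.00504), beside 11.1% and 7.31%. IFI35 and PML kept these calls in each fit run. NMI with H11 lost its call without any 1 of 6 libraries (both wild-type untreated, both wild-type H11, optimized untreated replicate 2 and optimized H11 replicate 2), with library totals alone, in the compared groups alone and with the length term, and was 3.69 without optimized untreated replicate 1 (adjusted p 0.000598 to 0.185 over the alternatives). IFI16 with IFNL3 lost its call without wild-type untreated replicate 1, either wild-type IFNL3 library, either optimized IFNL3 library or optimized untreated replicate 2, and with library totals or the compared groups alone (0.0157 to 0.25). DAXX with IFNL3 (0.61, adjusted p 0.0696) and NMI with IFNL3 (1.17, adjusted p 0.152) missed the threshold but passed it without optimized untreated replicate 1, at 0.90 and 3.34. Without that library IFI35 was at 4.76 with H11 and 3.96 with IFNL3. SP100 and SP110 gave wide intervals from few untreated reads, -1.38 to 8.64 and -1.98 to 2.77 with H11. Under scaling by library totals alone the percentage of calls that were higher moved from 52.9 to 17.6 with H11 and from 60.3 to 21.8 with IFNL3.

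**Figure D4:**
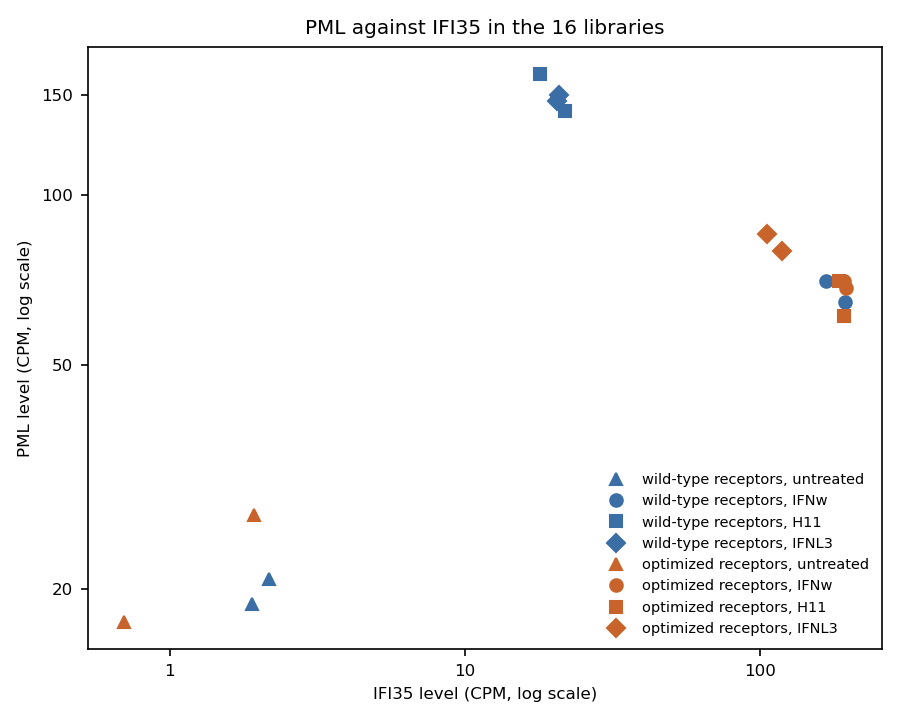
PML level against IFI35 level in CPM (both axes logarithmic), 1 point for each of the 16 libraries, with colour for genotype and shape for treatment. The 4 wild-type libraries with H11 or IFNL3 (PML 141 to 163 CPM, IFI35 17.9 to 21.7 CPM) lie apart from the IFNw libraries and from optimized cells with H11, and optimized cells with IFNL3 lie between (PML 79.3 to 85.2 CPM, IFI35 106 to 118 CPM).

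Ordered by group mean, the genes gave several sequences. For IFI16, IFI35 and NMI, IFNw in both genotypes and H11 in optimized cells came first with overlapping libraries, then optimized cells with IFNL3, then wild-type cells with H11 and IFNL3, then untreated cells. For PML the wild-type groups with H11 and IFNL3 came first, overlapping each other, then optimized cells with IFNL3, then the other 3 treated groups, which overlapped. For SP100 the 3 treated groups of optimized cells and wild-type cells with IFNw came first with overlapping neighbours, then wild-type cells with H11 and IFNL3, which overlapped, then untreated cells. The 6 treated groups of SP110 did not separate from their neighbours in the order. For DAXX optimized cells with IFNL3 stood above the next group and untreated cells below the treated ones. As a description over 8 group means of log2 CPM, with no test, Pearson's r was 0.997 between IFI16 and IFI35, 0.979 between IFI35 and NMI, 0.992 between SP100 and IFI35, 0.918 between PML and SP110 and 0.588 between PML and IFI35. Untreated libraries held 0 or 1 reads of SP100 and 0 to 5 of SP110. Their untreated log2 levels are thus set largely by the small count added before taking logs, and their r values depend on it.

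Among all genes with a mean of 5 CPM or more, those most like each of the 7 were read off the same 8 group means. STAT2 (0.993), REC8 (0.992) and TFRC (0.991) were most like PML. For IFI16 they were ISG15 (0.997), IFI35 (0.997) and OASL (0.996), and for IFI35 they were PARP10 (0.999), ISG15 (0.997) and IFI6 (0.997). SP110 was most like IFIH1 (0.995), PARP12 (0.993) and IFIT3 (0.992), and SP100 most like SPATS2L (0.995), PARP10 (0.995) and CYB5B (0.993). The minimum of 5 CPM was not asked of SP100 and SP110 themselves, whose untreated levels lie near the floor. NMI was most like UTP6 (0.990), STX18 (0.989) and SERTAD1 (0.989), and DAXX most like NCS1 (0.977), ACTR3 (0.964) and FADS2 (0.958). STAT2 shows the order seen for PML, with group means of 31.8, 87.0, 132 and 131 CPM in wild-type cells (untreated, IFNw, H11, IFNL3) and 35.5, 82.6, 83.4 and 98.3 CPM in optimized cells. All these values share the 16 libraries and their scaling, and the step from untreated to treated cells is common to most of these genes.

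Most other genes of PML bodies changed less than PML, and in wild-type cells several changed in opposite directions with different ligands. Of 34 listed genes, 33 were matched and 32 tested. With IFNw 6 rose and 10 fell, with H11 9 rose and 4 fell, and with IFNL3 10 rose and 4 fell in wild-type cells. In optimized cells 6 rose and 7 fell with IFNw, 5 rose and 7 fell with H11, and 1 rose and none fell with IFNL3. With IFNw in wild-type cells the risers were 18.8% of the 32, close to the 16.6% of all genes, and those that fell 31.2% against 14.8%. With H11 and IFNL3 there, 28.1% and 31.2% rose against 18.2% and 18.7% of all genes, and 12.5% fell with each, against 20.6% and 21.1%. In optimized cells the shares with IFNw (18.8% up, 21.9% down) and H11 (15.6% and 21.9%) stood beside 17.5% and 15.9%, and 17.2% and 15.2%, of all genes. With IFNL3 there, 3.12% rose and 0% fell, against 7.26% and 6.05%. The medians were -0.08, 0.26 and 0.25 in wild-type cells and -0.07, -0.04 and 0.15 in optimized cells, against -0.05 to -0.01 over all genes. The exonuclease ISG20 (1.995), the modifiers SUMO2 (0.92) and SUMO3 (0.52), and the histone chaperone and histone genes ASF1A (0.66) and H3F3B (0.53) rose with IFNw in wild-type cells. The kinase HIPK2 (-0.86), the deubiquitinase USP7 (-0.80), the deacetylase SIRT1 (-0.71), the helicase BLM (-0.66) and CABIN1 (-0.65) fell. HIPK2 and USP7 rose with H11 in wild-type cells (0.67 and 0.46) and fell with H11 in optimized cells (-0.99 and -0.60), and SUMO2 did the reverse (-0.60 and 0.64). The difference between the genotypes' H11 responses was -1.67 ± 0.255 for HIPK2, -1.06 ± 0.223 for USP7 and 1.23 ± 0.175 for SUMO2 (edgeR adjusted p 7.82e-05, 0.00124 and 3.74e-05). The length trend of the libraries had opposite signs in wild-type and optimized cells with H11, and its part in these differences was not tested. SUMO and histone genes have near-identical copies, so their levels are uncertain.

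**Figure D5:**
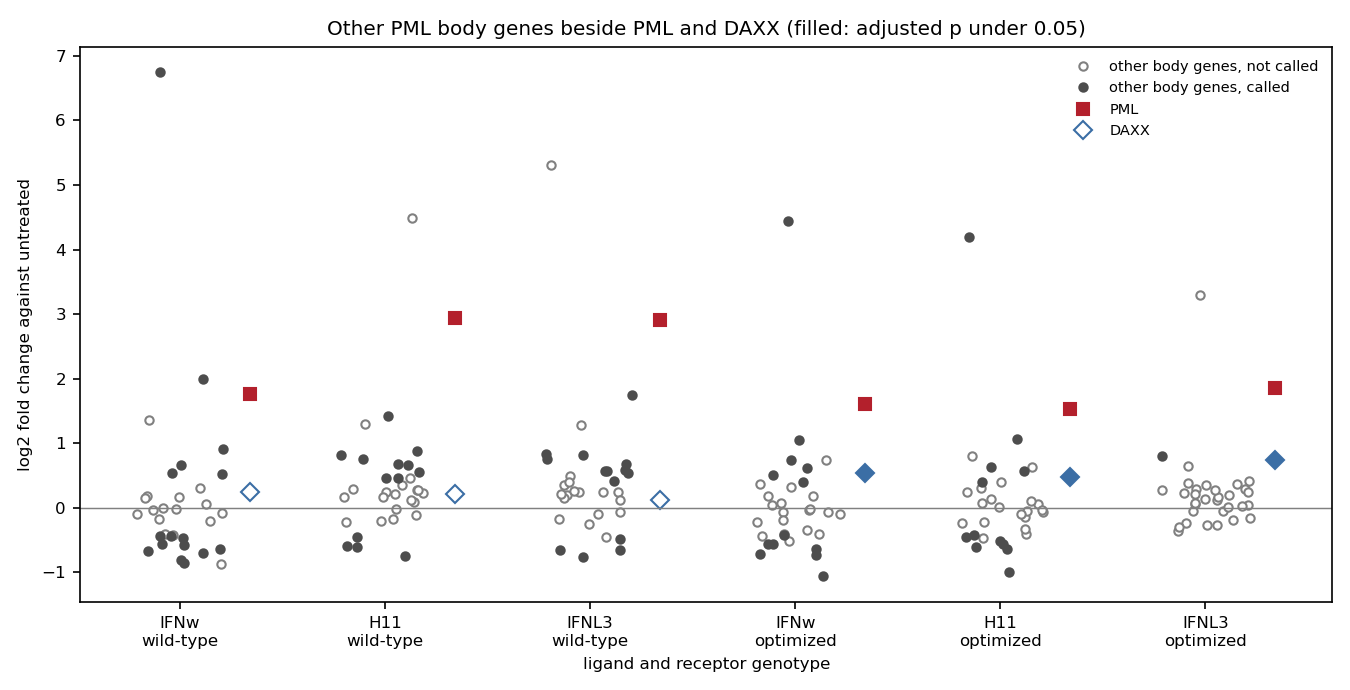
Log2 fold change against untreated cells of the 32 other PML body genes tested (circles) beside PML (red square) and DAXX (blue diamond), for each ligand and genotype; filled symbols have an adjusted p under 0.05. PML lies above the others in every column except for SP140L in all 6 and, with IFNw in wild-type cells, ISG20 (1.995); SP140L, an SP100 relative at a group mean of at most 1.69 CPM, was picked out after its values were seen.

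Of 18 genes of DNA sensing and the PYHIN family, 11 were tested beside IFI16. In wild-type cells 1 rose and 4 fell with IFNw, 2 rose and 1 fell with H11, and 5 rose and 1 fell with IFNL3. In optimized cells 2 rose and 3 fell with IFNw and with H11, and 2 rose and none fell with IFNL3. The 2 that rose with H11 in wild-type cells, and with IFNw and H11 in optimized cells, are 18.2% of the 11. Of all genes 18.2%, 17.5% and 17.2% rose there, so these counts are at the background. In wild-type cells 9.09% rose with IFNw and 45.5% with IFNL3, against 16.6% and 18.7% of all genes. With IFNL3 in optimized cells 18.2% rose and 0% fell, against 7.26% and 6.05%. In wild-type cells 36.4%, 9.09% and 9.09% fell with IFNw, H11 and IFNL3, against 14.8%, 20.6% and 21.1%. In optimized cells 27.3% fell with IFNw and with H11, against 15.9% and 15.2%. With so few genes each call is 9.09% of the list. PYCARD, the adaptor of inflammasomes, rose with IFNw in wild-type cells (1.03 ± 0.199) and fell there with H11 (-2.07 ± 0.236) and IFNL3 (-2.07 ± 0.238). In optimized cells it rose with H11 (0.89 ± 0.203), and the difference between the genotypes' H11 responses was 2.96 ± 0.312 (edgeR adjusted p 1.62e-06). The subunits of the DNA-dependent protein kinase PRKDC (-1.03), XRCC5 (-0.43) and XRCC6 (-0.42) and the nuclease gene MRE11A (-0.40) fell with IFNw in wild-type cells. PRKDC and XRCC6 rose there with H11 (0.51 and 0.68). The part of transcript length in these changes was not tested.

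Of 14 listed binding partners and related regulators of NMI and IFI35, 10 were tested, and 5 rose with each ligand in each genotype, beside 7.26 to 18.7% of all genes. Among them were the transcription factors IRF7 and STAT2, the RNA sensor gene DDX58 and the ubiquitin ligase gene TRIM21, with log2 rises of 4.88, 1.45, 3.71 and 3.23 with IFNw in wild-type cells. None fell with IFNw in wild-type cells, 3 fell with H11 and 2 with IFNL3 there, and 1 fell with each ligand in optimized cells. Of all genes 20.6% and 21.1% fell with H11 and IFNL3 in wild-type cells and 6.05 to 15.9% in optimized cells, so the 2 of 10 with IFNL3 and the 1 of 10 are near the background. With H11 in wild-type cells DDX58 rose by 4.69 and IRF7 by 4.37, where NMI rose by 2.19 and IFI35 by 3.28. For H11 against IFNw in optimized cells no gene of the 3 lists was called.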

How the data were processed

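Gene expression was measured in 16 HEK293 libraries made with an Ion Torrent kit. The deposited files hold raw read counts per target, 1 file for each library (unit read from the file headers and from the whole-number values). The submitters' processing notes name hg19. No source used here names the aligner or the counting tool. Of 20812 targets, 10 spike-ins were left out.

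Counts were tested with edgeR 4.0.16 (R 4.3.3; filterByExpr with a minimum count of 10, TMM, quasi-likelihood test) in 1 fit of 8 groups with 19 comparisons, and p-values were adjusted by Benjamini-Hochberg over 12704 genes; genes under 0.05 are called. The biological coefficient of variation was 13.3%. SE values are of log2 changes. Reads carry no molecular identifiers, so count intervals and floors cover counting error only. Promoter windows were searched by letters.

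The genes and lists were chosen with earlier results of these data known. The rule for named genes took the 7 genes, from 3 lists up to 5 called genes per direction for IFNw in wild-type cells and for H11 against IFNw in optimized cells (mean of 5 CPM or more), 6 yardstick genes, and the 3 genes most alike over group means; values of genes so named are also given for other comparisons. Alternatives were DESeq2 1.42.0, its size factors in edgeR, library totals alone, no low-count filter, a replicate block, the compared groups alone, an offset for transcript length, and each library left out, which assumes that the library left alone varies as the other groups do. A fit that drops wild-type cells with H11 or IFNL3 (4 libraries) was added after seeing the data. Values of 1 listed gene are not reported here.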

Additional observations from a re-analysis of the deposited data

Results flagged for a closer look

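The responses of PML, IFI16, IFI35 and NMI were picked out because the genotypes' log2 responses to the same ligand differed in a direct test (edgeR, interaction of genotype and ligand, optimized minus wild-type). For H11 the differences were 2.37 for IFI16, 3.72 for IFI35, 1.52 for NMI and -1.41 for PML. For IFNL3 they were 1.56 for IFI16, 2.91 for IFI35 and -1.04 for PML. Each rests on 2 libraries a group, and the tests for H11 and IFNL3 share the untreated libraries.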

How the results depend on the processing

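The number of the 7 genes called moved by over 1.5 times where a library was left out and under none of the other alternatives. Leaving 1 library out gave 0 to 2 calls for untreated optimized against wild-type cells (0 with all libraries), 2 to 5 for the IFNL3 response difference (3), 1 to 2 for IFNw against IFNL3 in optimized cells (3) and 1 to 2 for H11 against IFNL3 there (2). The highest of the first 2 came without untreated optimized replicate 1. Of the single values, DAXX reversed with library totals alone, to -0.50 for IFNw against IFNL3 and 0.58 for H11 against IFNw in wild-type cells. Both were called there and not with TMM. Beside these 2, of 133 single values that scaling lost 10 calls and gained 10, and the replicate block lost 1 and gained 3.

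Numbers of calls over all genes also moved. In the compared groups alone they went from 4247 to 2052 with IFNw, 4116 to 2021 with H11 and 1690 to 225 with IFNL3 in optimized cells, and from 2338 to 1538 for the IFNL3 response difference. With library totals alone they went from 2422 to 4201 for IFNw and 2232 to 3822 for H11 against IFNL3 in optimized cells. Without the filter, counts of 0 became 50 (untreated genotypes), 15 (IFNw response difference) and 1 (H11 against IFNL3, wild-type). Leaving out untreated optimized replicate 1 gave 1280 and 761 calls in the first 2 of these. Leaving 1 library out gave 680 to 3127 calls for IFNL3 in optimized cells, as few as 2630 for IFNw in wild-type cells (3988 with all), 2807 for optimized against wild-type cells with IFNL3 (4220), 1508 for its response difference, and 1243 and 1046 for IFNw and H11 against IFNL3 in optimized cells.

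The replicate numbers are not tied to a shared culture or batch in the labels. Over 28 pairs of groups, same-numbered deviations correlated at 0.0846 to 0.212, with 27 over 0.1, so pairing is only a hint from the data. With the replicate block SP100 with IFNL3 in wild-type cells missed the threshold (2.81, adjusted p 0.0541), and NMI passed it for optimized against wild-type cells with IFNL3 (0.75) and H11 against IFNL3 in optimized cells (0.72), as did the IFNL3 response difference of DAXX (0.62). The limits are 2 libraries a group and, for SP100 and SP110, 0 to 5 untreated reads.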
